A study of Homo sapiens with 4 samples.

Results

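The 10 genes described here are the AP-1 transcription factor subunits FOS, FOSB, FOSL1, FOSL2, JUN, JUNB and JUND and the stress- and growth-inducible genes EGR1, NR4A1 and IER3. They were taken by symbol from a deposited table of 26255 genes, and all 10 were found there. AP-1 is a dimer of a Fos-family with a Jun-family protein, or of Jun-family proteins with each other, and it binds DNA through a basic leucine zipper. Many genes of this group are immediate early genes, which are switched on within minutes of a growth factor or a stress without new protein synthesis, through MAP kinases that act on factors already sitting on their promoters. In carcinoma cells AP-1 output is known for its links to ERK and JNK signalling, invasion and inflammatory secretion, and the ratio of short-lived subunits such as FOS to long-lived ones such as JUND is known to differ between resting and stimulated cells.

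RNA was sequenced from 4 cultures of TOV21G, an established human line from an ovarian clear cell carcinoma, after poly(A) selection. The control culture received no drug, and the sources used here do not give its time in culture. The other cultures received arsenic trioxide (As2O3, a thiol-reactive drug) at 1 µM, GSK458 (an inhibitor of the growth kinases PI3K and mTOR) at 0.1 µM, or both at these doses, each for 48 h. No earlier time of treatment was sequenced, so the values cannot show an early response or when a level changed. There was 1 library per group, so no value below has a replicate error, no test was possible, and a difference describes 2 libraries rather than 2 conditions. All cultures are the same single cell line, so nothing here extends to other tumours.

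The values are FPKM, fragments per kilobase of transcript scaled for library size, which are per length and can be compared between genes. The sources used here do not give the method of scaling. Sums over all genes were 543975 to 588892 FPKM, and absolute depth is unknown. Steps between low values put the library size used in scaling the treated libraries at 85.8% to 109% of the control's. This is relative depth only if values were scaled by total reads. The labelled cell type was checked against its markers: all 7 clear cell and epithelial markers reached 1 FPKM in at least 1 library, with a summed level of 543 to 639 FPKM. KRT8, KRT18 and PAX8 carried most of that sum, whereas KRT7, NAPSA and EPCAM were low, at 1.45 to 2.79, 0.665 to 1.06 and 0.608 to 1.71 FPKM. Summed levels of other cell types' markers were 2.32 to 5.98 FPKM for 6 fibroblast genes, 0.226 to 0.395 FPKM for 5 immune genes and 0.0169 to 0.0786 FPKM for 4 endothelial genes. The fibroblast sum was highest in the As2O3 library, as were the members, and more of it was COL1A1 than all the others, at 2.65 FPKM untreated, 4.24 under As2O3, 1.84 under GSK458 and 1.58 under the combination. Of these other-cell markers, 2 fibroblast, 2 immune and 1 endothelial gene were listed at 0 in every library. Whether other cells' RNA has a part in the differences below was not tested.

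The promoters of several members are shown because immediate early genes are read through short elements close to their starts. RefSeq promoter windows on GRCh38.p14, from 250 bases before to 50 after the start, were matched by symbol for 8 members in 9 entries. FOSL1 and IER3 had no entry. The submitters' notes name another build, hg19, so these sequences were joined to the expression values by gene name and not by position. The capitals mark matches on either strand to TGACGT, the core of the cyclic AMP response element (CRE), to TGACNTCA, the full CRE and its close variants (a TGACGTCA site also counts as TGACGT), or to the CArG box, which binds serum response factor.

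FOS (chr14:75278744-75278789, plus strand): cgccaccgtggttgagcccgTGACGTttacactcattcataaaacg
FOSB (chr19:45467916-45467961, plus strand): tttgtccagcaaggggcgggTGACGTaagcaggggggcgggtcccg
FOSL2 (chr2:28392772-28392817, plus strand): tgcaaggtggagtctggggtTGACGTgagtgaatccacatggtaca
JUN (chr1:58784087-58784134, minus strand): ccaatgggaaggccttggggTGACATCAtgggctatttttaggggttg
EGR1 (chr5:138465323-138465437, plus strand): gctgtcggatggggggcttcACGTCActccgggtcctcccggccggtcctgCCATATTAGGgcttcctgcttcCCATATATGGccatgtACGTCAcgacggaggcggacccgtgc

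In FOS, FOSB and FOSL2 the CRE core began 64, 60 and 66 bases before the start, and in JUN the variant TGACATCA began 67 bases before it. EGR1 held CRE cores 136 and 67 bases before the start and CArG boxes 105 and 83 bases before it. JUND held TGACGTCA 200 bases and a further core 87 bases before its start. TGACGT was thus found in 5 of the 8 matched members (FOS, FOSB, FOSL2, JUND and EGR1), or 5 of their 9 entries. Of all 35116 promoter entries of the same length 7.98% held it. The windows of these 5 members were 64.0% to 77.0% G and C, against a median of 58.7% over all entries. The part of base composition was not tested. TGACNTCA was found in JUN and JUND against 7.72% of all entries, and the CArG box in EGR1 against 1.29%. The consensus AP-1 site itself, TGACTCA, was in 1 member, FOSL2, just after the start, against 4.95% of all entries. The entry of JUNB and both entries of NR4A1 held none of these. These are letter matches in a short window and say nothing of binding in these cells. Bases outside the window were not searched, so a member without a match here may hold the element farther upstream. The lack of a CArG box match in FOS, for example, does not show that FOS lacks this element.

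The members spanned more than 3 orders of magnitude in level. In the control IER3, an early response gene tied to cell survival, was highest at 211 FPKM. It was followed by JUND at 120 FPKM and FOSL2 at 89.3 FPKM, then JUN at 22.4, JUNB at 19.0, NR4A1 at 8.38, FOSL1 at 4.57, EGR1 at 3.38 and FOS at 2.13 FPKM. FOSB was last at 0.124 FPKM. Adjacent levels such as JUN and JUNB cannot be told apart or ranked with confidence from 1 library each. With As2O3, NR4A1 stood above JUNB and JUN, and FOS stood above EGR1, while IER3, JUND and FOSL2 kept the top places.

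**Figure D1:**
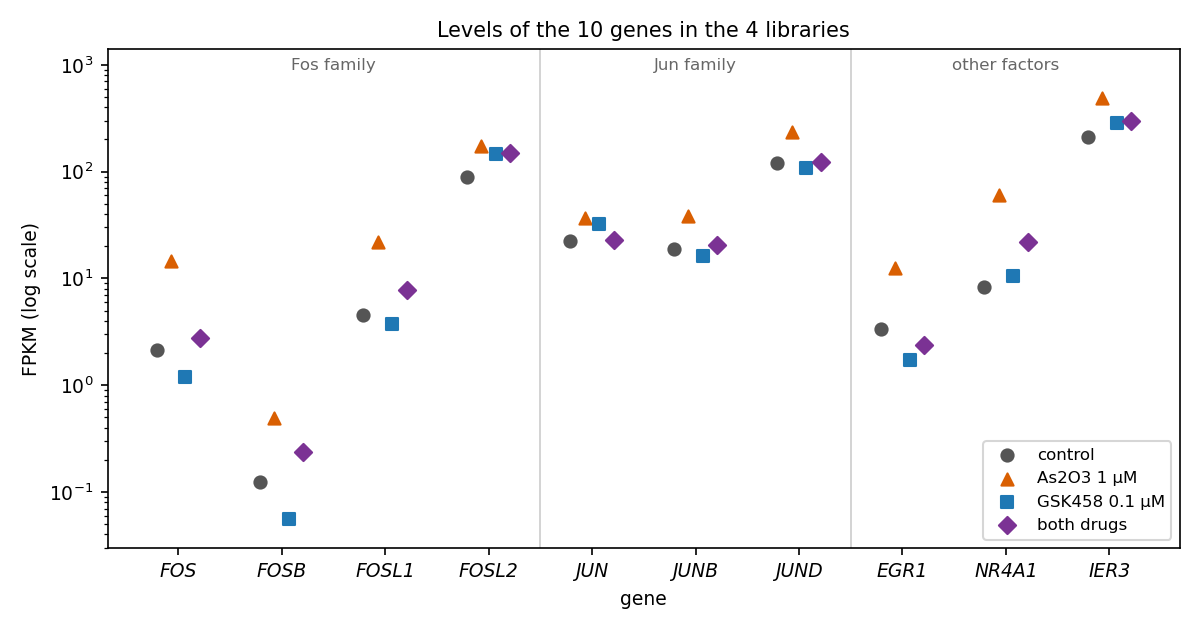
FPKM of each of the 10 genes (log axis) with the 4 libraries in different colours, 1 point per library. The As2O3 point is the highest for every gene, from FOSB at 0.495 to IER3 at 485 FPKM, while the lowest point is GSK458 or the control.

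Arsenic trioxide against the control asked what the drug does on its own. Every member was highest in the As2O3 library. FOSB was too low to enter the counts, and of the other 9 members, whose FPKM averaged 1 or more, 9 were higher than in the control and 5 at least 2-fold (NR4A1, FOS, FOSL1, EGR1 and IER3), none of them lower. The scale of all differences is log2(FPKM + 1), which understates those of low genes. The median over the 9 members was 1.20, against 0.01 over the 12260 genes past the same filter. Of these genes 51.2% were higher at all, 2.07% higher by 2-fold or more and 1.41% lower by as much. When libraries were rescaled to the same sum, the split of 2-fold genes was 246 higher and 292 lower in place of 254 and 173, while all 9 members still were higher. In RNA from a whole culture, a difference in how many cells express a gene cannot be told apart from a difference in message per cell.

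Among Fos-family genes, FOS and FOSL1 differed most. FOS, the prototype subunit that dimerises with Jun proteins, stood at 2.13 FPKM untreated, 14.5 under As2O3, 1.18 under GSK458 and 2.78 under the combination. The As2O3 library stood alone above the other 3, a log2 difference of 2.31 from the control and rank 32 from the top among tested genes. FOSL1 (Fra-1), a subunit known from invasive carcinoma cells, had 4.57, 21.7, 3.72 and 7.85 FPKM in that order, with a log2 difference of 2.03. It too was far highest with As2O3, and the combination lay between As2O3 and the control. FOSL2 (Fra-2), the most abundant Fos-family gene in these cells, stood at 89.3, 175, 145 and 149 FPKM, so all 3 treated libraries were above the control by 1.62 to 1.96 times in FPKM. FOSB, the least abundant, stood at 0.124, 0.495, 0.0555 and 0.234 FPKM. Its mean of 0.227 FPKM was under the filter, so it enters no count or median. The order of its libraries was that of FOS.

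The Jun-family genes were closer together. JUN, a subunit that JNK phosphorylates, stood at 22.4 FPKM untreated, 37.0 under As2O3, 32.4 under GSK458 and 23.1 under the combination. Each drug alone stood above the control, whereas the combination was within 1.03 times of it. JUNB, which often restrains JUN, stood at 19.0, 38.8, 16.3 and 20.6 FPKM. JUND, known for steady expression, stood at 120, 233, 108 and 124 FPKM. Both varied little among the other libraries and were higher with As2O3 alone, by log2 differences of 0.99 and 0.95. Together with FOSL2 at 0.96, these lay just under the 2-fold line. JUNB was over it, at 1.03, with a pseudocount of 0.1 FPKM.

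Outside AP-1, NR4A1 differed most of all members. NR4A1 (Nur77), an orphan nuclear receptor, stood at 8.38 FPKM untreated, 60.7 under As2O3, 10.5 under GSK458 and 21.8 under the combination. Its log2 difference with As2O3 was 2.72, rank 23 from the top among the 12260 genes. EGR1, a zinc finger factor downstream of ERK and serum response factor, had 3.38, 12.5, 1.71 and 2.40 FPKM in that order, a log2 difference of 1.62 with As2O3. EGR1 was below the control in both libraries that held GSK458. IER3 stood at 211, 485, 284 and 298 FPKM, a log2 difference of 1.20 with As2O3, with both GSK458 libraries close together and between control and As2O3.

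GSK458 against the control asked what PI3K and mTOR inhibition does to the same genes. No member was 2-fold apart in either direction, beside 2.35% of all tested genes higher and 3.87% lower. Members went both ways, 4 higher and 5 lower, beside 49.4% of all tested genes higher and 50.5% lower. The members' median was −0.14 against −0.01 over all genes, and it was 0.07 when only members averaging 5 FPKM or more were kept. That filter on the mean of all libraries left out EGR1, at 4.99 FPKM, and kept FOS, at 5.16 FPKM. EGR1 and FOS had the lowest values, log2 differences of −0.69 and −0.52, and in FPKM they stood at 0.51 and 0.56 of the control. FOSL1, JUNB and JUND followed at −0.24, −0.20 and −0.14. FOSL2, JUN, IER3 and NR4A1 were higher, at 0.69, 0.51, 0.43 and 0.29. FOS, FOSB, FOSL1, JUNB, JUND and EGR1 were at their lowest in the GSK458 library. JUND stood at 108 FPKM there, but FOS and EGR1 were low, at 1.18 and 1.71 FPKM.

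**Figure D2:**
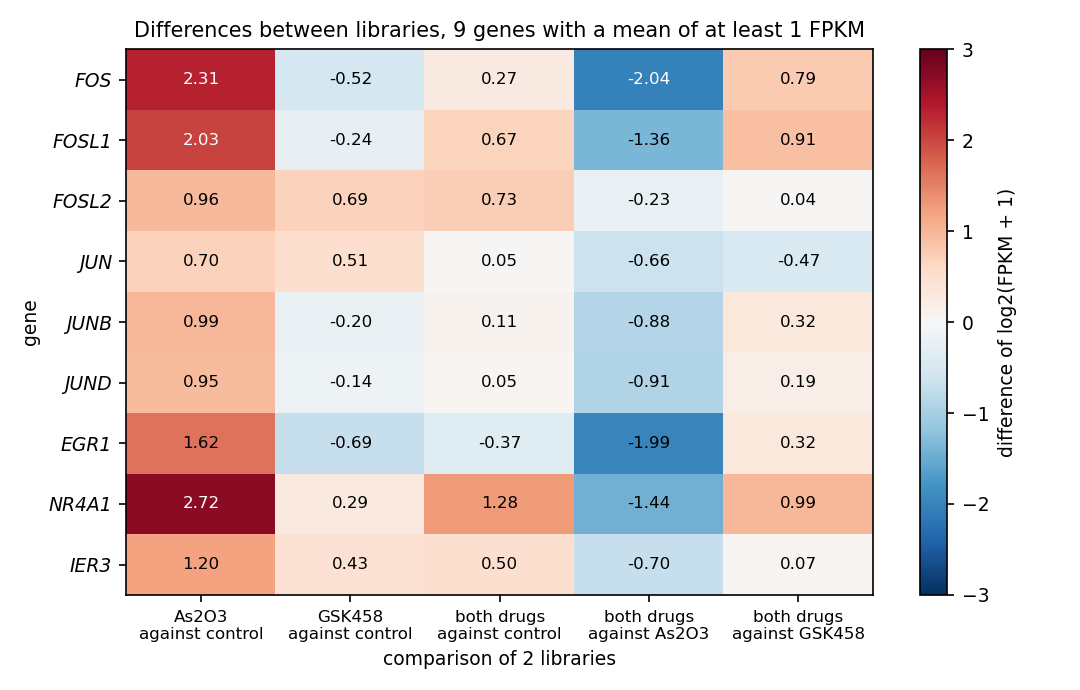
Differences of log2(FPKM + 1) for the 9 members past the filter (rows) in 5 comparisons of 2 libraries (columns), with the value printed in each cell, red for higher and blue for lower. The first column is positive throughout, from 0.70 to 2.72, the fourth is negative throughout, from −2.04 to −0.23, and the second is mixed.

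Both drugs against the control showed 1 member at least 2-fold apart, NR4A1 at 1.28, or 2.60 times in FPKM. The background was 3.25% of tested genes 2-fold higher or more and 4.31% lower. Here 8 members were higher than in the control and 1, EGR1, lower at −0.37, beside 48.8% and 51.1% of all tested genes. The members' median was 0.27 against −0.01 over all genes. FOSL2, FOSL1 and IER3 came next at 0.73, 0.67 and 0.50. FOS was at 0.27, and JUNB, JUN and JUND lay within 0.11 of the control. JUN and JUND, each at 0.05, were at −0.01 with libraries rescaled to the same sum, so their direction was not fixed.

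When As2O3 alone was the reference, all 9 members were lower in the combination, 4 of them at least 2-fold. These were FOS at −2.04, EGR1 at −1.99, NR4A1 at −1.44 and FOSL1 at −1.36. The background was 52.2% of tested genes lower at all, 4.27% at least 2-fold lower and 2.28% at least 2-fold higher, and no member was higher. The median of the members was −0.91 against −0.02 over all genes. In FPKM, FOS and EGR1 each stood at 0.19 of their As2O3 level, NR4A1 and FOSL1 at 0.36, JUNB and JUND at 0.53, IER3 at 0.61 and JUN at 0.63. FOSL2 was nearest, at 0.85. With upper-quartile scaling the 2-fold split of all genes was 401 higher and 419 lower in place of 280 and 524, and the members' count did not move. This comparison and that of As2O3 with the control share the As2O3 library, which was highest for every member, so the positive column and the negative column are not separate observations.

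With GSK458 alone as the reference, 8 of 9 members were higher in the combination, beside 50.5% of all tested genes. The members' median was 0.32 against 0.00 over all genes. No member reached 2-fold on the log2(FPKM + 1) scale, beside a background of 0.644% of tested genes higher and 0.318% lower. NR4A1, FOSL1 and FOS were nearest, at 0.99, 0.91 and 0.79, and their FPKM values were 2.09, 2.11 and 2.35 times those with GSK458. With a pseudocount of 0.1 FPKM these 3 genes passed 2-fold, at 1.05, 1.06 and 1.17. With libraries rescaled to the same sum NR4A1 and FOSL1 passed it, at 1.07 and 1.02, and 121 tested genes were higher and 51 lower in place of 79 and 39. JUNB and EGR1 were each at 0.32, JUND at 0.19, IER3 at 0.07 and FOSL2 at 0.04. JUN was lower, at −0.47.

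The As2O3 difference could thus be read from 2 pairs of libraries that have none in common, without and with GSK458. The sign was the same in both for 8 of 9 members (88.9%), beside 58.4% of all tested genes. In size, whatever its sign, the difference was larger without GSK458 for all 9 members, beside 68.1% of all tested genes. For the GSK458 difference, read without and with As2O3, the sign was the same for 5 of 9 members (55.6%), beside 71.3% of all tested genes, and in size the difference was larger alone for 1 of 9 members, FOSL2, beside 48.5% of all tested genes. With As2O3 the reference was the As2O3 library, highest for every member, so that difference was below 0 for all 9. The sign was thus the same just for the 5 members lower with GSK458 alone. The sizes draw on that library too and are not a separate observation.

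**Figure D3:**
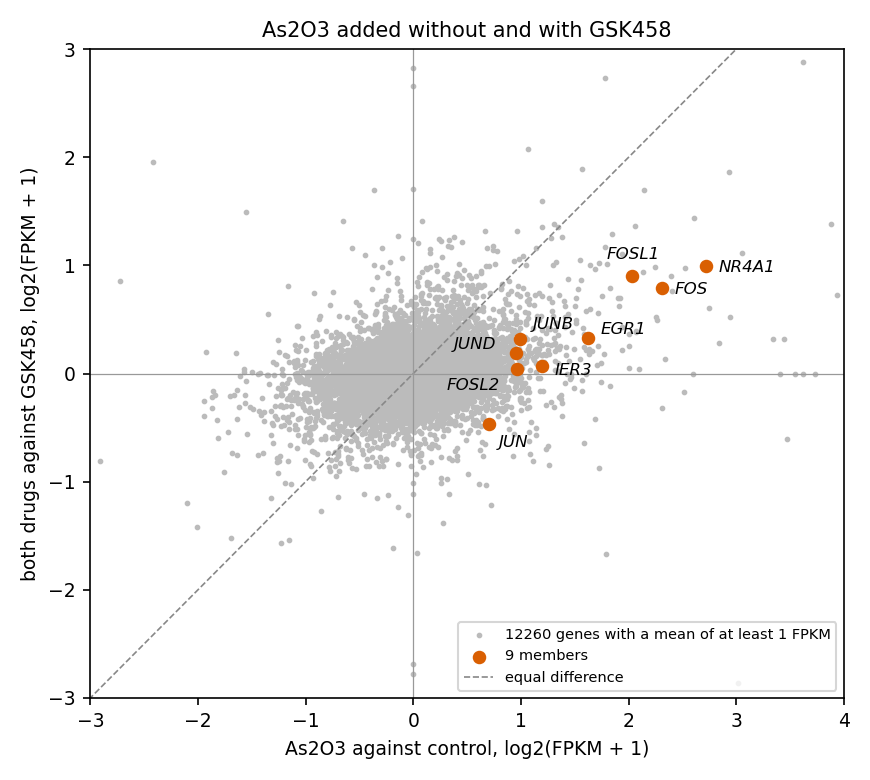
Difference of log2(FPKM + 1) for As2O3 against the control (horizontal) and for both drugs against GSK458 (vertical), with 1 grey point per tested gene and the 9 members in orange (29 genes lie outside the axes). All 9 members lie to the right of 0 and below the dashed line of equal differences, with JUN alone below 0 on the vertical axis at −0.47.

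The departure from additivity, the combination minus each single drug plus the control on the log2(FPKM + 1) scale, was below 0 for all 9 members. Of all tested genes 50.4% were below 0. The members' median was −1.13 against 0.00 over all genes. The departure was at least 1 below for 6 members, beside 2.05% of all tested genes below and 1.33% above. NR4A1 had −1.72, FOS −1.52, EGR1 −1.29, JUN −1.17, FOSL1 −1.13 and IER3 −1.13, while FOSL2, JUND and JUNB had −0.92, −0.76 and −0.68. For the 8 members higher in both As2O3 pairs, a departure below 0 is the same statement as a larger difference without GSK458. The 2 results are therefore not separate observations. The As2O3 library enters both, and 1 library's error would pass into them. Rescaling to equal sums gave 351 genes above and 215 below in place of 163 and 251, and upper-quartile scaling 207 and 209. Under rescaling IER3 was at −0.99, just short of 1.

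Composition of AP-1 was described as the share of each subunit in the summed FPKM of its family, which no scaling of a library can change. The Fos-family sum was 96.1 FPKM untreated, 212 under As2O3, 150 under GSK458 and 160 under the combination. FOSL2 was 92.9% of it untreated, 82.6% under As2O3, 96.7% under GSK458 and 93.2% under the combination. FOS was 2.22%, 6.86%, 0.790% and 1.74%, and FOSL1 4.75%, 10.3%, 2.48% and 4.90%, in the same order. FOSB never passed 0.234%. The Fos pool was therefore mostly FOSL2 message in every library, with the largest share of FOS and FOSL1 with As2O3 and the smallest with GSK458.

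The Jun-family sum was 161 FPKM untreated, 309 under As2O3, 157 under GSK458 and 168 under the combination. JUND was 74.4%, 75.5%, 69.0% and 73.9% of it, JUN 13.9%, 12.0%, 20.6% and 13.8%, and JUNB 11.8%, 12.6%, 10.4% and 12.3%. JUN had its largest share with GSK458, where those of JUNB and JUND were smallest. The ratio of the Fos to the Jun sum was 0.60 in the control, 0.69 with As2O3 and 0.95 in each of the GSK458 and combination libraries. These are message levels, and the amounts of protein and its phosphorylation were not measured.

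**Figure D4:**
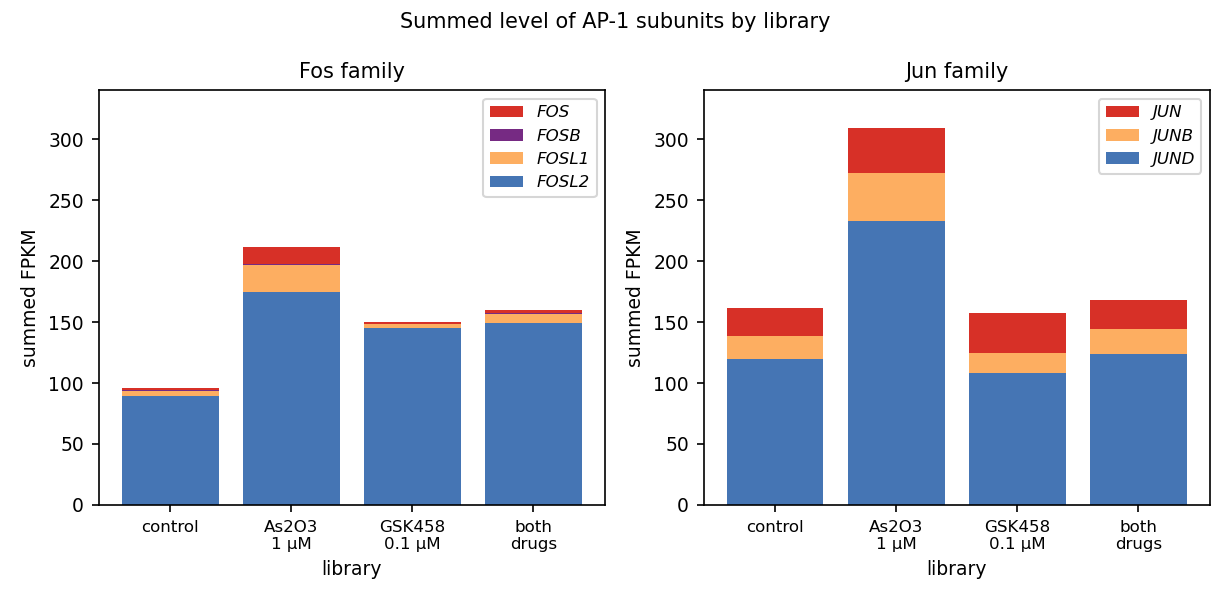
Stacked FPKM of the Fos-family genes (left) and the Jun-family genes (right) in each of the 4 libraries, 1 bar per library, from 0. FOSL2 and JUND fill most of every bar, and the As2O3 bars are the tallest, at 212 and 309 FPKM.

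Other genes of the pathway were taken from lists, read beside the same background shares. Of 40 other immediate early genes 33 passed the filter, and with As2O3 14 stood 2-fold or more above the control and 1 below it, with a median of 0.88. ATF3, a stress-induced bZIP factor, led at 1.35 FPKM in the control and 17.1 with As2O3, followed by MAFF, SIK1 and PHLDA1 at log2 differences of 2.34, 2.07 and 1.83. SGK1, a kinase downstream of PI3K, was the gene that was lower, at 20.5 FPKM in the control and 5.86 with As2O3. EGR2, a close relative of EGR1, was under 0.2 FPKM in every library. In the combination against As2O3, 8 were at least 2-fold lower and none higher (median −0.54), with ATF3, SIK1, PHLDA1 and PLK2 at −1.66, −1.49, −1.34 and −1.25. With GSK458 alone 23 of the 33 were above the control, beside 49.4% of all tested genes. The 3 higher by 2-fold or more were TIPARP, MAFF and CTGF, at 1.94, 1.78 and 1.68. SGK1 alone was lower by 2-fold or more, at −2.21.

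Of 29 bZIP factors that pair with AP-1 subunits or share their sites, 21 passed the filter and 8 were at least 2-fold higher with As2O3, none lower (median 0.64). ATF3, DDIT3, MAFF and CEBPB led, at 2.94, 2.84, 2.34 and 1.85. DDIT3 (CHOP), a stress-induced partner of CEBP proteins, stood at 9.26 FPKM untreated, 72.7 under As2O3, 11.1 under GSK458 and 13.7 under the combination, the same order of libraries as NR4A1 and IER3. MAFF, a small Maf protein, stood at 7.19, 40.4, 27.1 and 29.9 FPKM, so each treated library was above the control. JDP2, a repressor that dimerises with JUN, stood at 6.79, 10.2, 6.02 and 6.56 FPKM, and ATF2, a partner of JUN, at 21.6, 22.0, 23.4 and 23.5 FPKM. In the combination against As2O3, DDIT3 and ATF3 were at least 2-fold lower, at −2.32 and −1.66, and none was 2-fold higher. Of the 21 genes 6 were above their As2O3 level, beside 47.7% of all tested genes.

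Most upstream genes were nearer to the control. Of 36 tested genes of the ERK, JNK and p38 cascades none was 2-fold apart with As2O3 (median 0.06), the farthest being HRAS at −0.84 and MAP2K3, a kinase that activates p38, at 0.80. In the combination against As2O3, MAP2K3 was the 1 gene at least 2-fold apart, lower at −1.22 with 14.7 FPKM against 35.6. MAP2K6, another p38 activator, was the 1 gene 2-fold apart with GSK458 and with both drugs against the control, at −1.30 and −1.37, and it stood at 28.8, 16.8, 11.1 and 10.5 FPKM. MAPK8, which encodes JNK1, stood at 5.82, 6.87, 6.38 and 6.80 FPKM, and MAPK3, which encodes ERK1, at 41.8, 51.6, 43.8 and 45.4 FPKM. Kinase messages do not report kinase activity, which was not measured. Of 15 tested factors that bind immediate early promoters or act there as coactivators, MEF2D alone was 2-fold higher with As2O3, at 1.19. SRF, the factor of the CArG box shown above for EGR1, stood at 15.0, 15.8, 14.4 and 13.7 FPKM.

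Of 34 genes with known AP-1 sites or dependence, 25 passed the filter, and 10 were at least 2-fold higher with As2O3, none lower (median 0.51). HMOX1, MT2A, HMGA1 and CD44 led at 5.46, 1.94, 1.51 and 1.48. HMOX1 is also a target of NRF2 and MT2A of the metal sensor MTF1, so neither reads AP-1 alone. In the combination against As2O3 the list had a median of 0.03, unlike the members' −0.91. CXCL8, PLAU and PLAUR were at least 2-fold lower, at −1.52, −1.49 and −1.42, and none was 2-fold higher. PLAU, the urokinase protease, stood at 161 FPKM untreated, 379 under As2O3, 218 under GSK458 and 134 under the combination, and its receptor PLAUR at 1.93, 6.51, 2.27 and 1.82 FPKM. CD44, a hyaluronan receptor, stood at 21.7, 62.1, 76.7 and 100 FPKM, highest in the combination. MMP3, MMP10, MMP13 and PTGS2 were listed at 0 in every library, and MMP1 stayed under 0.5 FPKM.

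**Figure D5:**
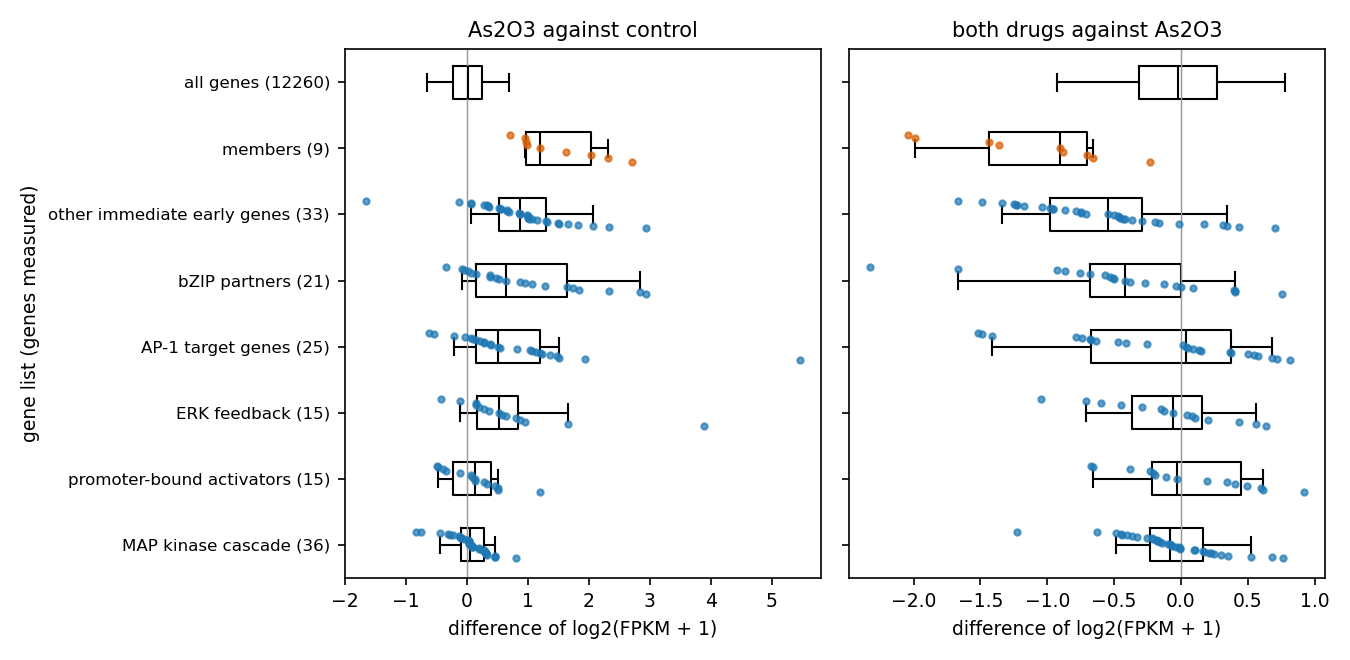
Differences of log2(FPKM + 1) for As2O3 against the control (left) and both drugs against As2O3 (right), by gene list with the number of tested genes, as boxes of the quartiles with whiskers at the 5th and 95th percentiles and 1 point per tested gene of a list. The members lie at a median of 1.20 on the left and −0.91 on the right, while the median of the MAP kinase cascade is 0.06 on the left and −0.08 on the right, where MAP2K3 lies at −1.22.

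The genes whose pattern over the 4 libraries was nearest to that of the members were named by Euclidean distance between centred log2(FPKM + 1) profiles. Nearest to the mean of the 9 members were CDKN1A, MXD1, CARS, ZFP36 and GPR3, at distances of 0.129 to 0.174. CDKN1A stood at 79.7, 244, 90.4 and 105 FPKM. Nearest to FOS were PMAIP1, CHAC1, PHLDA2, TRIB3 and SLC7A5, at 0.153 to 0.475, and PMAIP1 stood at 1.95, 14.6, 0.953 and 2.32 FPKM. Nearest to JUN were ZCCHC7, SLFN5, SPINT1, C17orf58 and ISG20, at 0.0729 to 0.142. With 4 libraries likeness is easily met, since 97 genes had r of at least 0.99 with FOS and 122 with the mean of the members, and by r itself none of the FOS genes and 1 of those of the mean was among the first 5.

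Some member values are less certain than others. In the GENCODE 29 annotation on GRCh38, FOSB overlaps ERCC1, JUNB overlaps HOOK2, FOSL2 overlaps FLJ31356 and IER3 and NR4A1 overlap antisense transcripts, these on the opposite strand, and FOSL2 also overlaps AC104695.3 on its own strand. The kit marked strand, but the sources used here do not give the strand setting of the authors' quantification, so reads in the overlaps may be shared. ERCC1 stood at 62.6, 68.6, 54.7 and 52.4 FPKM and HOOK2 at 8.88, 7.32, 11.5 and 10.1 FPKM, in the order used above. ERCC1 was thus highest in the As2O3 library, as FOSB was, HOOK2 was lowest there, where JUNB was highest, and FLJ31356 stood at 0.217, 0.395, 0.350 and 1.58 FPKM, highest in the combination. The part of shared reads was not tested.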

How the data were processed

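The deposited table gives FPKM values computed by the authors, with 1 column for each of 4 libraries. Per the submitters' processing notes, the build was hg19 and the tools Cuffdiff 2.2.1, TopHat2 2.1.1, SAMtools 0.1.18 and Bowtie2 2.2.8, with no step named. Column-purified RNA went into stranded mRNA libraries, per the labels' protocols. The sources used here give no annotation or filters.

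Values were used as deposited (Python 3.11.15, pandas 2.3.3, numpy 2.4.6). The 12260 genes averaging 1 FPKM or more were compared on log2(FPKM + 1), and 2-fold genes were counted per direction. The arithmetic was tested on simulated data. With 1 library per group there is no test or interval. The relative library size used in scaling came from the commonest ratio to the control among genes under 0.5 FPKM there. Members and lists were chosen with earlier results of these data known. By rule, all members were named, up to 4 genes per list and direction, the 5 nearest genes by profile and markers; JDP2, ATF2, EGR2, MAPK8, MAPK3, SRF, overlapping genes and genes listed at 0 were added after their values were seen. Pseudocount, filter, scaling and threshold alternatives are in the closing section. The values of 1 marker gene are not reported here.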

Additional observations from a re-analysis of the deposited data

Results flagged for a closer look

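Members whose difference for a drug had opposite signs without and with the other drug were singled out. Each sign rests on 1 library per group, and the contrast between the signs was not tested. For As2O3 this was JUN, at 0.70 without GSK458 and −0.47 with it. For GSK458 it was NR4A1, at 0.29 without As2O3 and −1.44 with it, IER3 at 0.43 and −0.70, FOSL2 at 0.69 and −0.23, and JUN at 0.51 and −0.66. The GSK458 values with As2O3 have the As2O3 library as their reference. It was highest for every member, so each of these values is below 0. JUN alone was on both lists, and its level with both drugs, 23.1 FPKM, was close to the control's 22.4 FPKM.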

How the results depend on the processing

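Of the 6 medians over the members, that for GSK458 against the control changed sign, from −0.14 to 0.07 when only members averaging 5 FPKM or more were kept. The member left out was EGR1, at a mean of 4.99 FPKM. The other 5 medians kept their sign under each pseudocount, filter and scaling, from 1.06 to 1.20 for As2O3 against the control and from −0.91 to −0.78 for the combination against As2O3. Median-of-ratios scaling hardly changed the deposited values, with 253 genes higher and 174 lower for As2O3 in place of 254 and 173. It was therefore a weak check. No member difference of 2-fold or more changed sign. Counts of members moved by more than 1.5 times as follows. With a threshold of 1.5-fold, 9 members were higher with As2O3, 1 higher and 1 lower with GSK458, 3 higher with both drugs, 8 lower in the combination than with As2O3 and 3 higher than with GSK458. That last count was 0 at 2-fold, 3 with a pseudocount of 0.1 FPKM and 2 with libraries rescaled to a sum of 1000000, and the cause was not tested. Smaller moves were from 5 to 4 (5 FPKM filter) or 6 (pseudocount 0.1) for As2O3, from 4 to 3 for the combination against As2O3 (5 FPKM filter), and from 6 departures to 5 (5 FPKM filter, rescaling) or 4 (pseudocount 5). EGR1 and FOSL1 had a departure of −0.92 each with a pseudocount of 5 FPKM. Rescaling moved the median of all genes from −0.01 to −0.11 for GSK458 and from 0.00 to 0.13 for the departure.

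Counts over all tested genes depended more on the settings. For As2O3 against the control, 254 higher and 173 lower genes became 380 and 349 with a pseudocount of 0.1 FPKM, 138 and 50 with 5 FPKM, 191 and 90 with genes averaging 5 FPKM or more, and 911 and 791 at 1.5-fold. For the combination against As2O3, 280 and 524 became 584 and 693, 69 and 276, 153 and 389, and 1160 and 1427. For the combination against GSK458, 79 and 39 became 170 and 100, 37 and 15, 60 and 16, and 269 and 188. For GSK458, 288 and 475 became 473 and 624, 124 and 258, 207 and 355, and 1056 and 1267, and for both drugs 399 and 528 became 623 and 687, 166 and 257, 275 and 393, and 1217 and 1429. Departures of 163 above and 251 below became 385 and 396, 44 and 111, 81 and 165, and 801 and 928. The 5 genes nearest by distance shared 1 with those by r for the mean of the members, and none for FOS and JUN. No library could be left out, as each group had 1, and no depth limit can be given for FOSB, whose reads are unknown.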

Other observations

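Genes that switch off ERK and clear AP-1 messages were described beside the members. Of 15 tested dual-specificity phosphatases and Sprouty-type inhibitors, 13 were above the control with As2O3, beside 51.2% of all tested genes. The 2 at least 2-fold higher were DUSP5 and DUSP1, beside 2.07% of all tested genes. DUSP1, a phosphatase of JNK, p38 and ERK that is itself an immediate early gene, stood at 9.75 FPKM untreated, 33.0 under As2O3, 17.0 under GSK458 and 19.8 under the combination. In FPKM as deposited, DUSP1 was above the control in both GSK458 libraries, as were FOSL2, JUN, NR4A1 and IER3. EGR1 was below the control in both, and FOS was below it with GSK458 alone but not in the combination. The median of these 15 genes was 0.57 with GSK458, where the members' was −0.14. Of 13 genes of message decay and protein turnover, ZFP36 (tristetraprolin), which binds AU-rich elements and marks messages such as FOS for decay, was at least 2-fold higher with As2O3, at 4.08, 13.5, 4.31 and 6.49 FPKM. Its relative ZFP36L1 stood at 205, 375, 151 and 166 FPKM, lower in the combination than with As2O3 by 1.17 on the log2 scale. Another relative, ZFP36L2, went the other way with As2O3, at 19.3, 12.0, 10.2 and 11.5 FPKM. Over the 13 genes the median with As2O3 was −0.08, and 5 were higher than in the control, beside 51.2% of all tested genes.

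AU-rich elements were counted in the 3′ UTR of the GENCODE 29 transcript with the longest coding sequence. All 10 members held the pentamer ATTTA, from 1 in FOSL1, JUND and EGR1 to 9 in FOSL2, beside 68.0% of 11046 tested genes. IER3 and FOS had the highest density among the members, 8.14 and 6.20 per kilobase, against a median of 1.55 over the tested genes and 2.09 over the members. The longer element TTATTTATT was in 2 of the 10 members, FOS and FOSL2, beside 8.18% of tested genes. The members with the largest As2O3 differences, NR4A1 and FOS, had 5.39 and 6.20 pentamers per kilobase, while FOSL1, next in that order, had a single pentamer in 666 bases.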
